A study of Homo sapiens with 12 samples.

Results

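The genes described here encode the tropomyosins (TPM1, TPM2, TPM3 and TPM4), the tropomodulins TMOD1 and TMOD3, and caldesmon (CALD1). They were picked by symbol, and all 7 were present among the 23583 features of the deposited count table and among the 16946 features with enough counts to be tested. Tropomyosins are coiled-coil proteins that join head to tail into cables along both sides of the actin filament, and the cable decides which other proteins reach the filament. Tropomodulins bind the end of the cable and cap the slow-growing (pointed) end of the filament, and caldesmon binds actin, tropomyosin and myosin and holds back the actin-activated ATPase of myosin. In cells outside muscle these proteins set how stable filaments and stress fibres are, and so bear on the shape and the movement of a cell.

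The RNA came from HCCLM3 and Huh7, 2 human lines of hepatocellular carcinoma, and was sequenced in 12 libraries. HCCLM3 is a line with a high capacity to metastasise, and Huh7 is a line that keeps many functions of hepatocytes. Each line received an siRNA against circASH2 (si-circASH2), a circular RNA named after the gene ASH2L, or a control siRNA (si-NC), with 3 libraries for each of the 4 groups (HCCLM3 si-circASH2, HCCLM3 si-NC, Huh7 si-circASH2 and Huh7 si-NC). The question of the study was what loss of circASH2 does to gene expression in relation to metastasis. Each condition rests on siRNA in 1 line, and every library received an siRNA, so a higher level with si-circASH2 and a lower level with si-NC cannot be told apart.

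Total counts lay between 29006781 and 30858895 per library. Whether the libraries of 1 group stem from different cultures is not labelled, so the p-values cover the spread among these libraries alone, and that spread may be technical. A level is given with the SD of 3 libraries, and a log2 fold change with its standard error in the fitted model. ASH2L, the host gene of the circle, was lower with si-circASH2 in each line, with log2 fold changes of -0.24 ± 0.05 in HCCLM3 (edgeR adjusted p = 0.0014) and -0.19 ± 0.05 in Huh7 (edgeR adjusted p = 0.00304), and the circle itself was not measured. The lines are labelled as hepatocellular carcinoma cells, and the epithelial keratins KRT8 and KRT18 averaged at least 963 CPM (counts scaled to a common library size, with TMM factors) in every group. Genes of secreted hepatocyte proteins were much lower in HCCLM3. Albumin (ALB) averaged 2.81 CPM with si-circASH2 and 3.24 CPM with si-NC in HCCLM3, and 8449.6 CPM with si-circASH2 and 9864 CPM with si-NC in Huh7. APOA1, TTR and SERPINA1 were below 1 CPM on average in HCCLM3, while apolipoprotein B (APOB) kept 63.7 CPM with si-circASH2 and 52.0 CPM with si-NC there, against 8759 CPM with si-circASH2 and 8446 CPM with si-NC in Huh7. Of 7 markers of smooth muscle and myofibroblasts, cells that are rich in these proteins, ACTA2 averaged at most 0.134 CPM and MYH11 at most 0.596 CPM in any group. The list summed to between 26.8 and 30.1 CPM with si-circASH2 and between 28.6 and 30.5 CPM with si-NC in HCCLM3, and to between 118 and 124 CPM with si-circASH2 and between 107 and 118 CPM with si-NC in Huh7. Nearly all of that was SMTN (smoothelin), CNN1 reached 2.13 CPM with si-circASH2 in Huh7, and none of the 4 markers that could be tested passed the test in either line.

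Of the 7 genes, 4 were higher and 1 was lower with si-circASH2 in HCCLM3 at an adjusted p under 0.05, beside 30.6% of all tested features called in either direction (15.1% higher and 15.5% lower). In Huh7 3 were higher and 1 was lower, beside 31.4% of all features (16.3% higher and 15.1% lower). The median log2 fold change of the 7 genes was 0.12 in HCCLM3 and 0.11 in Huh7, against 0.00 and 0.01 over all tested features. TPM4 was the sole gene of the 7 with a fold change above 2 in either line. The median absolute log2 fold change over all tested features was 0.172 in HCCLM3 and 0.177 in Huh7. The called changes of TPM3 (0.116) and TMOD3 (0.146) in HCCLM3 and of TPM3 (0.164) in Huh7 were smaller than that. In HCCLM3 the si-circASH2 and si-NC libraries did not overlap for 5 of the 7 genes, 4 higher and 1 lower, beside 43.7% of all tested features (21.8% higher and 21.9% lower). In Huh7 they did not overlap for 4, 3 higher and 1 lower, beside 42.7% of all tested features (22.4% higher and 20.3% lower).

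**Figure D1:**
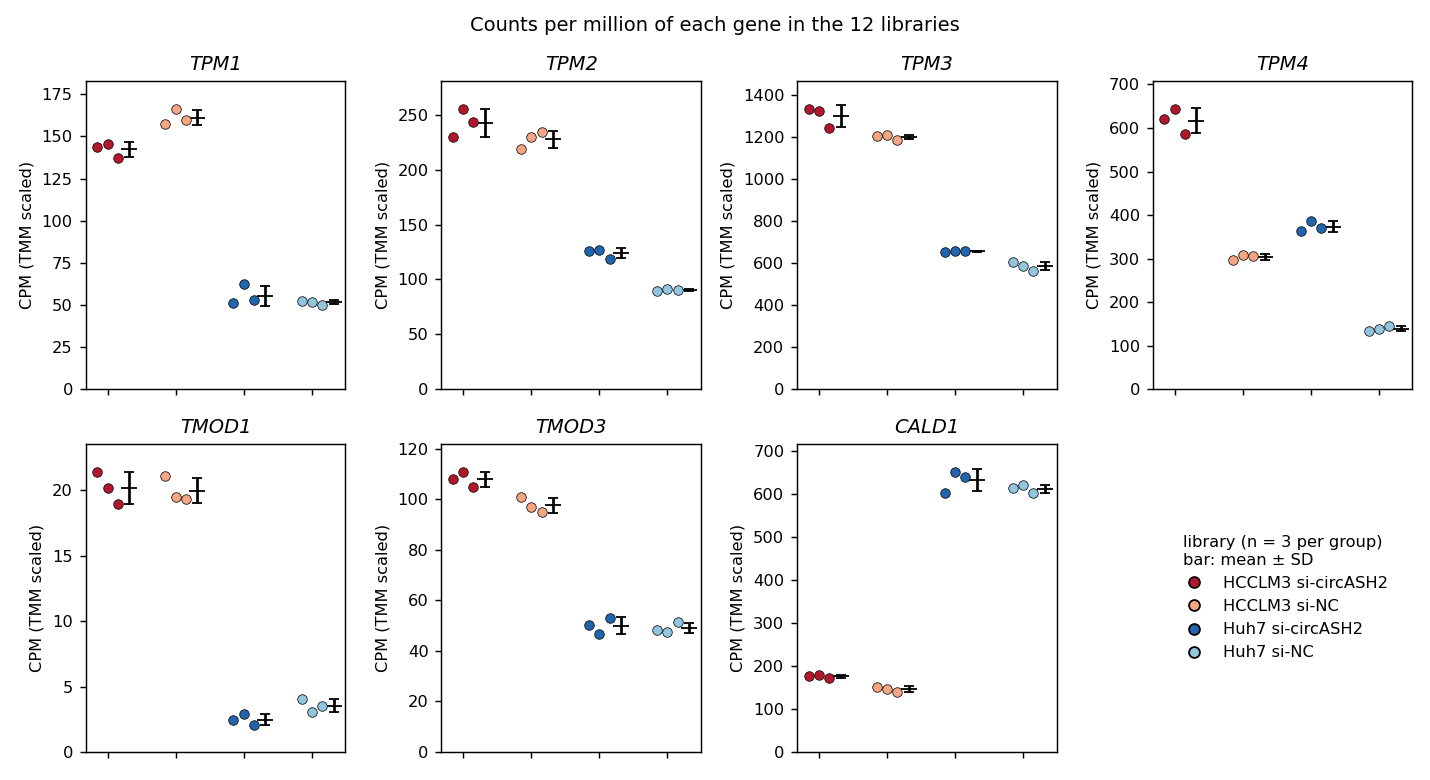
CPM (TMM scaled) of each of the 7 genes in the 12 libraries, 1 panel per gene with its own axis from 0; points are libraries and the bar beside them is the mean ± SD of the 3 libraries of a group. The TPM4 libraries with si-circASH2 lay between 587 and 644 CPM in HCCLM3 and between 363 and 388 CPM in Huh7, above the si-NC libraries of the same line, and CALD1 was the gene with its higher levels in Huh7.

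TPM4, which encodes a short tropomyosin of the cytoskeleton of nonmuscle cells, showed the largest change of the 7 in both lines. In HCCLM3 it had 619.7, 644 and 587 CPM in the si-circASH2 libraries, against 296, 309 and 306 CPM in the si-NC libraries. In Huh7 it had 363, 388 and 370.3 CPM in the si-circASH2 libraries, against 133, 139 and 145 CPM in the si-NC libraries. The highest si-NC library stayed far below the lowest si-circASH2 library in both lines. The log2 fold change was 1.02 ± 0.04 in HCCLM3 (edgeR adjusted p = 6.16e-15), a 2.03-fold higher level with a 95% interval of 1.92 to 2.15. In Huh7 it was 1.43 ± 0.04 (edgeR adjusted p = 9.39e-18), a 2.69-fold higher level with a 95% interval of 2.54 to 2.85. By absolute log2 fold change TPM4 ranked 938 among the 16946 features in HCCLM3 and 475 in Huh7. The response was smaller in HCCLM3 than in Huh7, and the log2 fold changes differed by -0.40 ± 0.05 (HCCLM3 minus Huh7, edgeR adjusted p = 8.06e-06). The TPM4 libraries of Huh7 with si-circASH2 (374 ± 12.5 CPM) all lay above those of HCCLM3 with si-NC (304 ± 6.69 CPM), a comparison that was not tested.

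Markers of fibroblasts, which also hold much tropomyosin, had a higher summed level with si-circASH2 as well. It lay between 49.5 and 53.8 CPM with si-circASH2 and between 35.9 and 38.4 CPM with si-NC in HCCLM3, and between 59.9 and 61.1 CPM with si-circASH2 and between 37.9 and 43.3 CPM with si-NC in Huh7. Of the 7 markers 1 was higher in HCCLM3 (LUM) and 4 in Huh7 (COL1A2, COL3A1, PDGFRB and LUM), and none was lower, beside 15.1% of all tested features called higher in HCCLM3 and 16.3% in Huh7. In HCCLM3 LUM alone had 48.3 CPM with si-circASH2 and 34.3 CPM with si-NC, most of the sum, and in Huh7 COL1A2 had 38.9 CPM with si-circASH2 and 24.4 CPM with si-NC. DCN was at 0 in all Huh7 libraries, and COL1A2 and PDGFRB were at 0 in the HCCLM3 libraries with si-NC. The lines are labelled as carcinoma cells, so these sums are levels of marker genes and do not count fibroblasts. Whether these genes have a part in the result was not tested. In bulk RNA a change in the number of cells that express a gene and a change in RNA per cell cannot be told apart. Leukocyte markers summed to between 171 and 207 CPM with si-circASH2 and between 143 and 165 CPM with si-NC in HCCLM3, mostly from CD68, and to between 336 and 363 CPM with si-circASH2 and between 380.5 and 417 CPM with si-NC in Huh7, mostly from LYZ. CD68 was called higher in both lines, in Huh7 with 38.6 CPM with si-circASH2 and 20.7 CPM with si-NC. LYZ was called lower in Huh7. Endothelial markers summed to between 19.6 and 21.8 CPM with si-circASH2 and between 25.9 and 27.7 CPM with si-NC in HCCLM3, and to between 23.7 and 24.3 CPM with si-circASH2 and between 24.1 and 27.4 CPM with si-NC in Huh7. PECAM1 and KDR were called lower in HCCLM3, beside 15.5% of all tested features. No endothelial marker was called in Huh7.

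The TPM4 gene lies on chromosome 19 (chr19:16067021-16103005, plus strand, GRCh38). It overlaps AC008894.3 on the opposite strand and has 1 named pseudogene. Neither is a feature of the count table, so how reads shared with them were counted is uncertain. Earlier results of these data had picked short sequences found in the 3′ untranslated regions (UTRs) of genes that rose (TCGGAGA and CGGAGAA) or fell (TTATACC and TATACCA) with si-circASH2, so a match in one of these genes is a description and no independent support. They are shown because they tell which of the 7 genes carry such a sequence and which do not. The matches in GENCODE 29 (GRCh38), read on the transcript strand, are printed with the matched letters in capitals and up to 30 bases in all.
TPM4 3′ UTR, chr19:16101482-16101511, plus strand: aatattttgtaTCGGAGAAgctttgagcac
TPM3 3′ UTR, chr1:154157444-154157473, minus strand: ctgcctcttccCGGAGAAtccagctgggct
TMOD1 3′ UTR, chr9:97600873-97600902, plus strand: gtgccttttaaTATACCAcagtgccagtta
In TPM4 both sequences overlap in 1 run of 8 bases, 241 bases after the stop codon and in 7 of 7 transcripts with an annotated 3′ UTR. In TPM3 the match lies 177 bases after the stop codon in 7 of 11 such transcripts, and in TMOD1 it lies 1186 bases after the stop codon in 3 of 3. Neither TPM1, TPM2, TMOD3 nor CALD1 held any of the 4 sequences. Among 13994 tested genes with an annotated 3′ UTR, 0.736% held the whole run found in TPM4, 2.50% held TCGGAGA, 3.17% held CGGAGAA, 9.17% held TTATACC and 10.3% held TATACCA. Whether these sequences have a part in the change of TPM4, TPM3 or TMOD1 was not tested.

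TPM4 was also the gene among the 7 with a CArG box, the sequence bound by serum response factor (SRF), in 1 of its 3 RefSeq promoters (GRCh38.p14, 250 bases before to 50 bases after a start). The box is shown, in capitals, because SRF drives many genes of the actin cytoskeleton.
TPM4 promoter, chr19:16067355-16067384, plus strand: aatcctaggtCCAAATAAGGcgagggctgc
It begins 173 bases before the start, and 1.29% of 35116 promoters hold a CArG box on either strand. CATTCC, the core of the element bound by TEAD factors, was found in 2 of 4 promoters of CALD1 and in 14% of all promoters, again on either strand. TGANTCA, a loose form of the AP-1 site in which N is any base, was found in 1 of 4 promoters of CALD1, there as TGATTCA. It was found in 7.71% of all promoters, on either strand too. The other promoters of the 7 genes, 15 in all, held none of these letters. SRF itself was lower in HCCLM3, with 43.3 ± 0.657 CPM with si-circASH2 and 50.3 ± 2.94 CPM with si-NC (log2 fold change -0.22 ± 0.06, edgeR adjusted p = 0.0111). In Huh7 SRF had 40.1 CPM with si-circASH2 and 41.7 CPM with si-NC on average (edgeR adjusted p = 0.575). Its coactivators, listed as MKL1 and MKL2, passed the test in neither line.

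TPM3, which also encodes short cytoskeletal tropomyosins, rose by little in both lines. In HCCLM3 it had 1333, 1326 and 1242 CPM in the si-circASH2 libraries and 1205, 1208 and 1187 CPM in the si-NC libraries. In Huh7 it had 653, 658 and 657 CPM in the si-circASH2 libraries and 605, 587 and 565 CPM in the si-NC libraries. In these counts the groups did not overlap in either line. In FPKM those of Huh7 did, at 190.4 to 209.7 with si-circASH2 and 175 to 195 with si-NC. The log2 fold changes of the counts were 0.12 ± 0.03 in HCCLM3 (edgeR adjusted p = 0.00787) and 0.16 ± 0.03 in Huh7 (edgeR adjusted p = 0.000373), and their difference of -0.05 ± 0.05 did not pass the test (edgeR adjusted p = 0.529). Both calls were lost when the deposited FPKM (fragments scaled by transcript length and library depth) were tested with limma, with adjusted p between 0.0708 and 0.105 in HCCLM3 and between 0.134 and 0.181 in Huh7, and the HCCLM3 call was lost in edgeR without si-circASH2 replicate 1 (adjusted p = 0.0617). The gene lies on the minus strand of chromosome 1 (chr1:154155304-154194648) and has 8 named pseudogenes, none of which is a feature of the count table, so how reads shared with them were counted is uncertain.

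TPM2, a gene for longer tropomyosins of muscle and of stress fibres (chr9:35681992-35690121, minus strand), was higher with si-circASH2 in Huh7. It had 126, 126 and 118 CPM in the si-circASH2 libraries of Huh7, against 89.2, 91.0 and 90.5 CPM in the si-NC libraries, with no overlap. The log2 fold change there was 0.45 ± 0.04 (edgeR adjusted p = 1.46e-08). In HCCLM3 it had 229.7, 255 and 243 CPM in the si-circASH2 libraries and 219, 229.9 and 234 CPM in the si-NC libraries. These groups overlapped, and the log2 fold change of 0.09 ± 0.04 did not pass the test (edgeR adjusted p = 0.0916), although it did when HCCLM3 was fitted on its own (0.0418) or si-circASH2 replicate 1 was left out (0.0326). The response of TPM2 was smaller in HCCLM3 than in Huh7 with a tested difference of -0.36 ± 0.06 in log2 (edgeR adjusted p = 7.25e-05).

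TPM1, which also encodes longer tropomyosins, went the other way in HCCLM3. Counts per gene do not tell forms of different length apart. It had 144, 146 and 137 CPM in the si-circASH2 libraries of HCCLM3, against 157, 166 and 159.6 CPM in the si-NC libraries. The groups did not overlap, and TPM1 was lower on the log2 scale (-0.18 ± 0.05, edgeR adjusted p = 0.00905). That call was lost without si-NC replicate 2 (edgeR adjusted p = 0.0523) or si-circASH2 replicate 3 (edgeR adjusted p = 0.0524), and with limma on the FPKM of all features above 0 (adjusted p = 0.0688). In Huh7 it had 51.4, 62.3 and 53.0 CPM in the si-circASH2 libraries and 52.5, 52.1 and 50.3 CPM in the si-NC libraries, so that 1 library stood above the other 5. The log2 fold change there was 0.11 ± 0.06 (edgeR adjusted p = 0.155, falling to 0.0368 when si-circASH2 replicate 1 was left out). The tested difference between the lines was -0.29 ± 0.07 (edgeR adjusted p = 0.00783), and it was lost with limma on FPKM (adjusted p between 0.131 and 0.199). TPM1 lies on the plus strand of chromosome 15 (chr15:63042632-63071915) and overlaps an antisense gene, TPM1-AS, which is no feature of the count table. The strand of the libraries is not given, so reads of such a pair cannot be told apart.

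**Figure D2:**
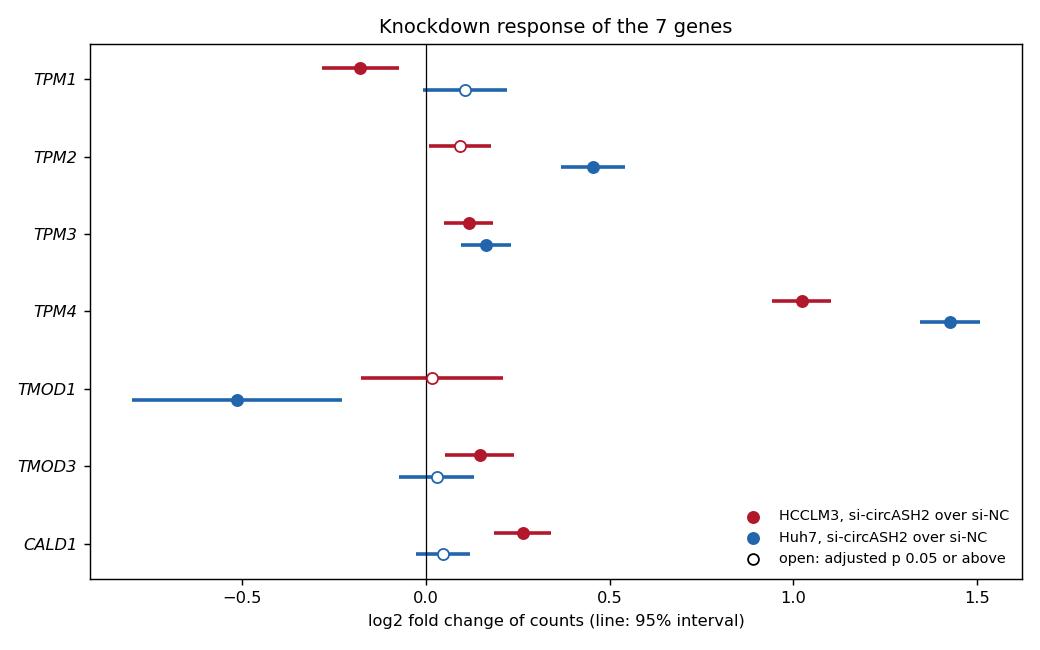
Log2 fold change of counts, si-circASH2 over si-NC, of the 7 genes in HCCLM3 (red) and Huh7 (blue), with 95% intervals from the edgeR fit; filled points have an adjusted p under 0.05. TPM4 stands at 1.02 in HCCLM3 and 1.43 in Huh7, apart from the other 6 genes, which lie between -0.51 and 0.45.

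Levels of different genes were compared in the deposited FPKM, which are scaled by length. Sums set between libraries also carry any difference in how the FPKM were scaled by depth. In the 4 tropomyosin genes together the FPKM summed to 926, 962 and 869 in the si-circASH2 libraries of HCCLM3, against 761, 763 and 773 in the si-NC libraries. In Huh7 they summed to 411, 439 and 406 in the si-circASH2 libraries, against 297, 321 and 311 in the si-NC libraries. The tropomyosin transcript pool was thus larger by 153 FPKM in HCCLM3 (919 ± 46.8 against 766 ± 6.27) and by 109 FPKM in Huh7 (419 ± 17.8 against 309 ± 12.1). The exact two-sided permutation test gave p = 0.1 for each line, which is the floor of such a test with 20 possible arrangements. Of this difference in the sum, 69.2% in HCCLM3 and 70.2% in Huh7 came from TPM4. In HCCLM3 29.7% came from TPM3 and 8.65% from TPM2, and TPM1, lower by a difference of -11.5 FPKM, entered with -7.50%. In Huh7 14.8% came from TPM3, 14.8% from TPM2 and 0.316% from TPM1.

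The makeup of the pool shifted to TPM4. Its share was 23.2, 22.7 and 23.1% of the summed FPKM in the si-circASH2 libraries of HCCLM3, against 13.7, 13.9 and 13.7% in the si-NC libraries. In Huh7 it was 28.6, 29.4 and 30.7% in the si-circASH2 libraries, against 15.3, 14.6 and 15.9% in the si-NC libraries. The mean share was higher by 9.25 percentage points in HCCLM3 and by 14.3 percentage points in Huh7, without overlap (exact two-sided permutation p = 0.1 in each line, the smallest possible). The share of TPM3, the most abundant of the 4 in all 12 libraries, was 50.4 ± 1.26% with si-circASH2 and 54.5 ± 0.309% with si-NC in HCCLM3, and 47.9 ± 1.12% with si-circASH2 and 59.6 ± 1.05% with si-NC in Huh7. TPM1 made up 8.95 ± 0.252% with si-circASH2 and 12.2 ± 0.193% with si-NC in HCCLM3, and 6.80 ± 0.512% with si-circASH2 and 9.11 ± 0.507% with si-NC in Huh7. The share of TPM2 was 17.7 ± 1.20% with si-circASH2 and 19.5 ± 0.275% with si-NC in HCCLM3, and 15.7 ± 0.309% with si-circASH2 and 16.0 ± 0.287% with si-NC in Huh7, where the groups overlapped (exact two-sided permutation p = 0.2). Shares add up to the whole, so a larger share of 1 gene lowers the others by construction, and the level of TPM3 was higher while its share was lower.

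**Figure D3:**
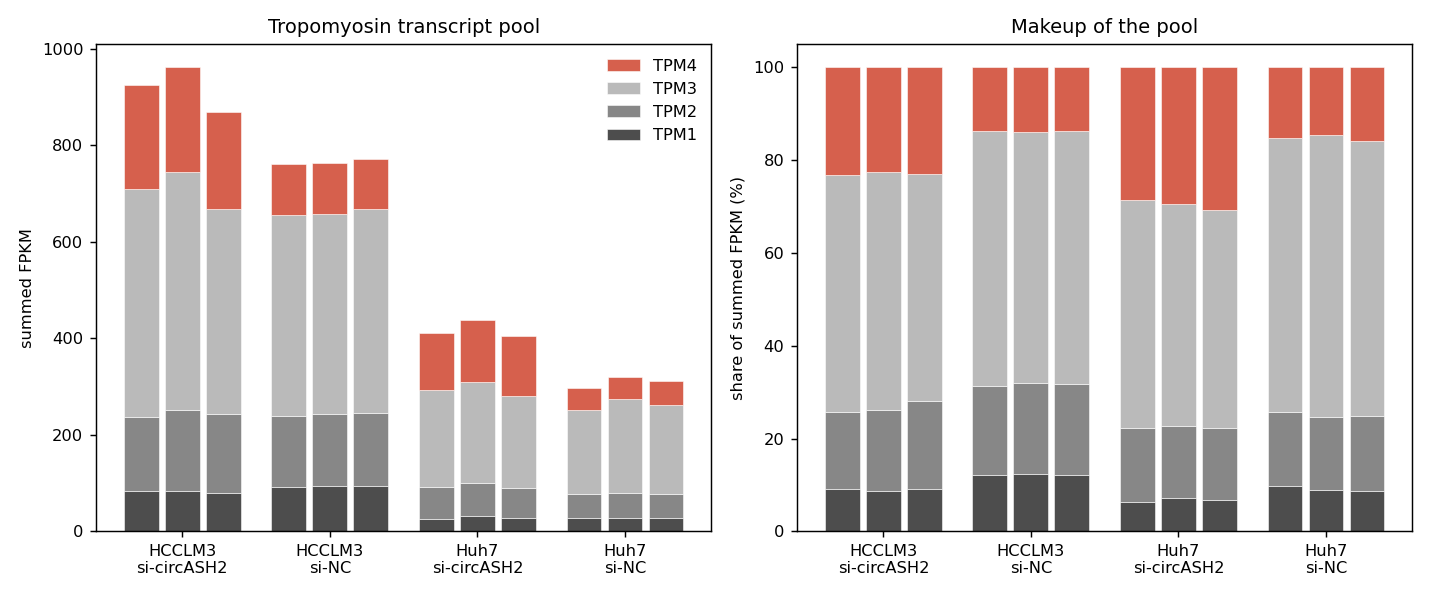
Left, deposited FPKM of TPM1 to TPM4 stacked in each of the 12 libraries; right, the share of each gene in that sum in percent, with 3 bars (libraries) per group. The TPM4 segment made up 22.7 to 23.2% with si-circASH2 and 13.7 to 13.9% with si-NC in HCCLM3, and 28.6 to 30.7% with si-circASH2 and 14.6 to 15.9% with si-NC in Huh7.

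The order of levels changed with the share. In FPKM the order in HCCLM3 with si-circASH2 was TPM3, TPM4, TPM2, TPM1, CALD1, TMOD3 and TMOD1, and with si-NC TPM2 (149 ± 3.31 FPKM) stood before TPM4 (105 ± 0.731 FPKM). No neighbours in either order overlapped. In Huh7 with si-circASH2 it was TPM3, CALD1, TPM4, TPM2, TPM1, TMOD3 and TMOD1, where CALD1 (135 ± 7.86 FPKM) and TPM4 (124 ± 5.93 FPKM) overlapped. In Huh7 with si-NC it was TPM3, CALD1, TPM2, TPM4, TPM1, TMOD3 and TMOD1, where TPM2 (49.5 ± 1.46 FPKM) and TPM4 (47.2 ± 1.98 FPKM) overlapped. TPM3 ranged from 425 to 491 FPKM with si-circASH2 and from 414 to 421 FPKM with si-NC in HCCLM3, above 99.4% of all features with a level above 0.

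TMOD1, the tropomodulin of red blood cells and striated muscle, was low in Huh7 and lower with si-circASH2. It had 2.44, 2.92 and 2.10 CPM in the si-circASH2 libraries of Huh7 (from 63 to 88 counts), against 4.03, 3.07 and 3.54 CPM in the si-NC libraries (from 92 to 123 counts). The groups did not overlap, and the log2 fold change was -0.51 ± 0.14 (edgeR adjusted p = 0.00587), a smaller -0.24 on the log2(FPKM + 1) scale, which understates changes at low levels. In HCCLM3 it had 21.4, 20.2 and 19.0 CPM in the si-circASH2 libraries and 21.1, 19.5 and 19.4 CPM in the si-NC libraries. These groups overlapped, and the log2 fold change was 0.02 with a 95% interval from -0.18 to 0.21 (edgeR adjusted p = 0.958). The difference between the lines was 0.53 ± 0.17 (edgeR adjusted p = 0.0254). This call was lost without any 1 of 5 libraries, which were HCCLM3 si-circASH2 replicate 1 (edgeR adjusted p = 0.0659), HCCLM3 si-NC replicate 3 (0.0518), Huh7 si-circASH2 replicates 1 (0.0514) and 3 (0.0960) and Huh7 si-NC replicate 1 (0.0972). It was lost with limma on FPKM as well (adjusted p between 0.0705 and 0.104, with a difference of 0.25 on the log2(FPKM + 1) scale). TMOD1 (chr9:97501180-97601748, plus strand) overlaps TSTD2 on the opposite strand, whose reads cannot be told apart from its own.

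TMOD3, the tropomodulin of most cell types, was a little higher with si-circASH2 in HCCLM3. It had 108, 111 and 105 CPM in the si-circASH2 libraries of HCCLM3, against 101, 96.9 and 94.9 CPM in the si-NC libraries, with no overlap. The log2 fold change there was 0.15 ± 0.05 (edgeR adjusted p = 0.0171). The call was lost without si-circASH2 replicate 2 (edgeR adjusted p = 0.0705), si-NC replicate 2 (0.0551) or si-NC replicate 3 (0.0823), and with limma on FPKM (adjusted p between 0.0825 and 0.118). In Huh7 it had 50.1, 46.8 and 53.2 CPM in the si-circASH2 libraries and 48.3, 47.4 and 51.4 CPM in the si-NC libraries, which overlapped (log2 fold change 0.03 with a 95% interval from -0.07 to 0.13, edgeR adjusted p = 0.725). The difference between the lines of 0.12 ± 0.07 did not pass the test (edgeR adjusted p = 0.245). TMOD3 (chr15:51829628-51947295, plus strand) overlaps LEO1 on the opposite strand, and the same limit holds.

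CALD1 (chr7:134744252-134970728, plus strand) was higher with si-circASH2 in HCCLM3. It had 176, 180.0 and 172 CPM in the si-circASH2 libraries of HCCLM3, against 153, 148 and 140.1 CPM in the si-NC libraries, with no overlap. The log2 fold change there was 0.26 ± 0.04 (edgeR adjusted p = 7.28e-06). In Huh7 it had 604, 652 and 641 CPM in the si-circASH2 libraries and 614, 621 and 603 CPM in the si-NC libraries. There the groups overlapped (log2 fold change 0.05 with a 95% interval from -0.03 to 0.12, edgeR adjusted p = 0.359). The response was larger in HCCLM3, with a difference of 0.22 ± 0.05 in log2 (edgeR adjusted p = 0.00373).

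The levels of caldesmon and of the tropomodulins were also set against the tropomyosin pool. For each 100 FPKM of tropomyosin, caldesmon gave 4.43 ± 0.143 FPKM with si-circASH2 and 4.42 ± 0.256 FPKM with si-NC in HCCLM3. In Huh7 it gave 32.3 ± 1.98 FPKM with si-circASH2 and 42.6 ± 1.84 FPKM with si-NC, and these libraries did not overlap. The tropomodulins TMOD1 and TMOD3 together gave 1.85 ± 0.0645 FPKM with si-circASH2 and 2.06 ± 0.109 FPKM with si-NC in HCCLM3, and 1.42 ± 0.117 FPKM with si-circASH2 and 2.01 ± 0.165 FPKM with si-NC in Huh7, for each 100 FPKM of tropomyosin. Neither ratio was tested, and a larger tropomyosin pool lowers both by construction. In Huh7 CALD1 itself had 135 FPKM with si-circASH2 and 132 FPKM with si-NC on average. TMOD1 made up 31.6 ± 1.14% of the tropomodulin FPKM with si-circASH2 and 33.5 ± 0.498% with si-NC in HCCLM3, and 10.9 ± 2.23% with si-circASH2 and 15.1 ± 1.75% with si-NC in Huh7.

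Of the 7 responses, 5 differed between the lines in the test of the difference itself, 2 upward and 3 downward in HCCLM3 relative to Huh7, beside 20.9% of all tested features (9.6% upward and 11.3% downward). TPM1, TPM2 and TPM4 had the smaller or the more negative value in HCCLM3, and TMOD1 and CALD1 had the more positive one.

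With si-NC alone, the lines differed in all 7 genes, beside 85.2% of all tested features (41.6% higher and 43.6% lower in HCCLM3), so that a difference between the lines is what most features show. HCCLM3 was higher than Huh7 in 6 of them, and the libraries overlapped in none of the 7, beside 86.5% of all tested features without overlap (42.2% higher and 44.3% lower in HCCLM3). TMOD1 had the largest difference of the 7 with 19.98 ± 0.963 CPM in HCCLM3 and 3.55 ± 0.481 CPM in Huh7, a 5.62-fold higher level (log2 fold change 2.49 ± 0.11, edgeR adjusted p = 3.29e-16). By absolute log2 fold change it ranked 4115 among the 16946 features, whose median was 0.96. The log2 fold changes were 1.64 ± 0.05 for TPM1, 1.33 ± 0.04 for TPM2, 1.13 ± 0.04 for TPM4, 1.03 ± 0.03 for TPM3 and 0.99 ± 0.05 for TMOD3. CALD1 was lower in HCCLM3, with 147 ± 6.26 CPM in HCCLM3 and 612 ± 8.69 CPM in Huh7 (log2 fold change -2.06 ± 0.04, edgeR adjusted p = 7.55e-24). In FPKM the tropomyosin pool of HCCLM3 was 2.47 times that of Huh7 (766 ± 6.27 against 309 ± 12.1, exact two-sided permutation p = 0.1, the smallest possible), with a larger share of TPM1 (12.2 against 9.11%) and TPM2 (19.5 against 16.0%) and a smaller share of TPM3 (54.5 against 59.6%) and TPM4 (13.8 against 15.3%). In counts the share of TPM4 overlapped between the lines, with 15.8, 16.2 and 16.2% of the summed CPM in HCCLM3 and 15.1, 16.0 and 17.0% in Huh7.

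Counts and FPKM did not stand in 1 fixed ratio for the tropomyosins. Dividing CPM by FPKM gives the length in kilobases that the FPKM imply, times any factor of a library from a different scaling by depth. Such a factor was not separated from length. The ratios of TMOD1 and TMOD3 were both lowest in HCCLM3 si-NC replicate 1 (3.71 and 9.16). Both were highest in Huh7 si-circASH2 replicate 1 (3.92 and 9.69). For TPM2 the implied length was at most 1.53 kb in HCCLM3 and between 1.79 and 1.92 kb in Huh7, without overlap between the lines. The implied length of TPM3 lay between 2.69 and 2.99 kb in HCCLM3 and between 2.97 and 3.47 kb in Huh7, that of TPM1 between 1.69 and 1.78 kb in HCCLM3 and between 1.80 and 2.00 kb in Huh7, and that of TPM4 between 2.83 and 2.99 kb in HCCLM3 and between 2.90 and 3.10 kb in Huh7. Over the 12 libraries the range of the ratio was 24.9% of its mean for TPM2, 25.9% for TPM3, 16.8% for TPM1 and 9.08% for TPM4, against a median of 7.44% over 11553 features. It was 5.63% for TMOD1, 5.69% for TMOD3 and 11.6% for CALD1. GENCODE 29 lists 34 transcripts for TPM1, 12 for TPM2, 23 for TPM3 and 24 for TPM4, and not all of them are protein-coding. How these transcripts differ was not examined, and how the length was set for a gene is not given in the sources used here. For TPM2 the difference between the lines with si-NC was therefore 1.33 in counts and up to 1.59 in FPKM on the log2 scale.

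**Figure D4:**
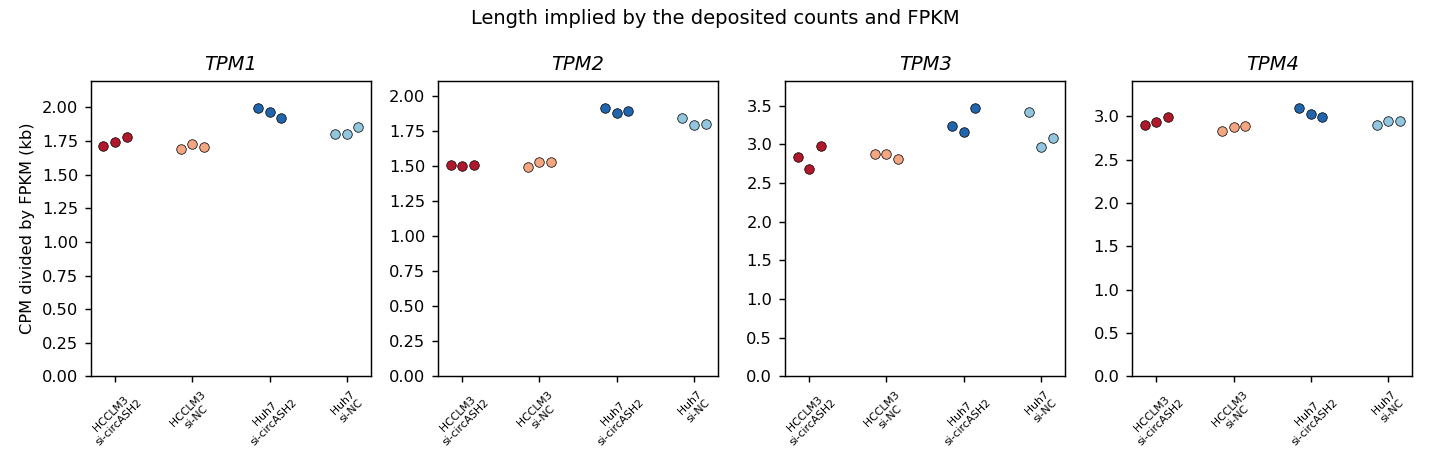
Length in kilobases implied by the deposited values (CPM on the total count divided by FPKM) for the tropomyosin genes in the 12 libraries, each axis from 0. Points are libraries in 4 groups of 3, and the ratio also carries any depth factor of a library. TPM2 lies at or below 1.53 kb in HCCLM3 and between 1.79 and 1.92 kb in Huh7, while TPM4 lies between 2.83 and 3.10 kb in all libraries.

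The genes whose levels ran closest to each of the 7 across the 12 libraries were ranked by the root mean square difference of log2 CPM after centring each gene, among 10921 features with a symbol and at least 5 CPM on average. Nearest to TPM4 were HABP4 (0.16 log2 units), ZNF267 (0.22), C15orf57 (0.30), SNAPC1 (0.31) and LAMA4 (0.31), against a median of 0.85 over all candidates. HABP4, a binder of RNA and hyaluronan, had log2 fold changes of 0.76 ± 0.06 in HCCLM3 and 1.22 ± 0.07 in Huh7, both below those of TPM4. LAMA4, a laminin chain, had 0.77 ± 0.08 in HCCLM3 and 1.15 ± 0.08 in Huh7. The other 6 genes had closer neighbours. TPM1 lay nearest to STK39 (0.06), TRAPPC8 (0.07) and FUT8 (0.07), TPM2 to ARHGEF35 (0.06), TIMP3 (0.07) and PPP1R9B (0.07), and TPM3 to ARNT (0.05), PLS3 (0.05) and ARRB1 (0.05). TMOD1 lay nearest to IKBKG (0.14), STRIP2 (0.18) and P2RY2 (0.19), TMOD3 to VRK3, MED13 and ZNF646 (0.06 each), and CALD1 to PTPRF (0.05), ITM2B (0.07) and NDUFV1 (0.07). Of these neighbours, HABP4 and TIMP3 hold TCGGAGA in a 3′ UTR, and STRIP2 and ITM2B hold TATACCA. The matches of STRIP2 lay in 1 of 2 transcripts with a 3′ UTR, and that of ITM2B in 1 of 5. C15orf57 had no annotated 3′ UTR under that symbol and could not be searched. Among all tested genes with a 3′ UTR, 2.50% hold TCGGAGA and 10.3% hold TATACCA. Neighbours and sequences were both picked from these data, so the matches are a description and no independent support. TPM2 and CALD1, to which TIMP3 and ITM2B lie near, hold none of the 4 sequences. ARHGEF35 has near-identical relatives, which makes its counts uncertain.

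Other genes of the actin filament were followed in 8 lists of 79 genes, of which 65 could be tested. In HCCLM3 14 were higher and 18 lower with si-circASH2, and in Huh7 26 were higher and 4 lower, beside the 30.6% and 31.4% of all features called in either direction. The median log2 fold change of the 65 genes was 0.01 in HCCLM3 and 0.14 in Huh7. In the test of the difference 3 were more positive and 21 more negative in HCCLM3, beside 9.6% more positive and 11.3% more negative over all tested features. The median difference was -0.13 for the 65 genes and -0.02 over all tested features. For the counts by list that follow, the shares over all tested features were 15.1% higher and 15.5% lower in HCCLM3 and 16.3% higher and 15.1% lower in Huh7. Lists of so few genes allow no more than a description.

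The crosslinkers, which tie filaments into bundles and nets, were higher in 7 of 8 cases in Huh7 and lower in 1 (ACTN4). In HCCLM3 2 were higher and 4 lower, ACTN4 among them. LCP1, a plastin, was higher in both lines, with 13.1 ± 0.397 CPM with si-circASH2 and 7.87 ± 1.21 CPM with si-NC in HCCLM3 (log2 fold change 0.74 ± 0.09, edgeR adjusted p = 8.38e-07) and 72.4 ± 4.92 CPM with si-circASH2 and 42.7 ± 1.67 CPM with si-NC in Huh7 (0.76 ± 0.07, edgeR adjusted p = 4.13e-09). PLS1, a plastin of epithelial microvilli, was lower in HCCLM3 (276 ± 4.0 CPM with si-circASH2 and 403 ± 16.3 CPM with si-NC, log2 fold change -0.55 ± 0.04, edgeR adjusted p = 1.13e-09) and higher in Huh7 (37.4 ± 3.03 CPM with si-circASH2 and 29.7 ± 1.08 CPM with si-NC, 0.34 ± 0.05, edgeR adjusted p = 2.25e-05). Fascin (FSCN1) was higher in HCCLM3 by 0.49 ± 0.07 (edgeR adjusted p = 8.85e-06) and in Huh7 by 0.31 ± 0.08 (edgeR adjusted p = 0.00294), and alpha-actinin 1 (ACTN1) was higher in Huh7 by 0.30 ± 0.04 (edgeR adjusted p = 1.19e-06).

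Myosin II, the motor that pulls on tropomyosin-coated filaments, and its switches were higher in 8 of 12 cases in Huh7, with none lower. In HCCLM3 2 were higher, close to the share over all tested features, and 3 were lower. The regulatory light chains MYL12A and MYL12B were lower in HCCLM3, by log2 changes of -0.30 ± 0.04 and -0.20 ± 0.04 (edgeR adjusted p = 9.43e-07 and 0.00109), and higher in Huh7, by 0.20 ± 0.04 and 0.22 ± 0.04 (edgeR adjusted p = 0.000188 and 0.000298). They are near-identical copies, so the split of reads between them is uncertain. The essential light chain MYL6 was higher in Huh7 by 0.20 ± 0.04 (edgeR adjusted p = 0.000162), and the heavy chain MYH10 was higher in HCCLM3 by 0.26 ± 0.04 (edgeR adjusted p = 1.54e-05) and in Huh7 by 0.12 ± 0.04 (edgeR adjusted p = 0.0143).

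Among calponins, transgelins and troponins, 8 of 13 could be tested. TAGLN (transgelin, SM22) moved in opposite directions, with 1.62 ± 0.388 CPM with si-circASH2 and 3.25 ± 0.399 CPM with si-NC in HCCLM3 (log2 fold change -1.0 ± 0.19, edgeR adjusted p = 0.000227) and 9.85 ± 1.63 CPM with si-circASH2 and 5.12 ± 0.419 CPM with si-NC in Huh7 (0.94 ± 0.15, edgeR adjusted p = 4.13e-05). The difference between the lines was -1.94 (edgeR adjusted p = 2.55e-06). TAGLN2 was lower (-0.18 ± 0.03, edgeR adjusted p = 0.0001) and CNN3 higher (0.15 ± 0.04, edgeR adjusted p = 0.00757) in HCCLM3. CNN2 was the third lower gene of the list there, and TAGLN was the sole gene of the list called in Huh7.

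A list of 15 genes held depolymerising and severing factors, which act best on filaments free of most tropomyosins, and also kinases and phosphatases of cofilin. Of these 15 genes, 4 were higher and 3 lower in HCCLM3, and 6 were higher and 1 lower in Huh7. Scinderin (SCIN) was higher in HCCLM3 by 0.70 ± 0.07 (edgeR adjusted p = 3.96e-08), while CAP1 (-0.30 ± 0.03, edgeR adjusted p = 1.48e-07) and villin (VIL1, -0.25 ± 0.04, edgeR adjusted p = 1.03e-05) were lower there. CAP1 was higher in Huh7 (0.11 ± 0.03, edgeR adjusted p = 0.00878). WDR1, the cofactor of cofilin, was higher in Huh7 by 0.30 ± 0.03 (edgeR adjusted p = 1.13e-07), beside the cofilin phosphatase SSH3 (0.36 ± 0.05, edgeR adjusted p = 1.56e-06) and destrin (DSTN, 0.22 ± 0.04, edgeR adjusted p = 0.000165). In HCCLM3 DSTN was lower (-0.16 ± 0.04, edgeR adjusted p = 0.00274), WDR1 was higher (0.10 ± 0.03, edgeR adjusted p = 0.0236) and SSH3 did not pass the test.

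Of 13 formins, which build the filaments that tropomyosins coat, 5 were higher and 2 lower in HCCLM3, and 4 were higher and 1 lower in Huh7. FMN1 was higher (0.66 ± 0.06, edgeR adjusted p = 5.73e-09), FMNL2 was higher (0.18 ± 0.04, edgeR adjusted p = 0.00115) and INF2 was lower (-0.28 ± 0.05, edgeR adjusted p = 3.98e-05) in HCCLM3. FMNL1 was higher from a low level in Huh7, with 2.68 ± 0.343 CPM with si-circASH2 and 0.934 ± 0.194 CPM with si-NC (1.52 ± 0.22, edgeR adjusted p = 1.15e-05). DIAPH1 was higher (0.20 ± 0.03, edgeR adjusted p = 7.18e-05) and DIAPH3 was lower (-0.51 ± 0.08, edgeR adjusted p = 2.83e-05) in Huh7. FMNL2 passed the test upward in Huh7 too, and FMNL1 and DIAPH1 did so in HCCLM3.

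Of the filament-end caps other than TMOD1 and TMOD3, 4 of 8 could be tested. The capping protein subunit CAPZA1, which caps the fast-growing end, was lower in both lines, by -0.23 ± 0.04 in HCCLM3 (edgeR adjusted p = 0.000116) and by -0.13 ± 0.04 in Huh7 (edgeR adjusted p = 0.0198). TMOD2, the tropomodulin of neurons, was low, at 2.51 CPM with si-circASH2 and 1.75 CPM with si-NC in HCCLM3 and 2.27 CPM with si-circASH2 and 3.13 CPM with si-NC in Huh7, and was called in neither line (edgeR adjusted p = 0.084 and 0.112). Its difference between the lines did pass the test (0.98 ± 0.31 in log2, HCCLM3 minus Huh7, edgeR adjusted p = 0.0263). Of the 6 actins, 2 could be tested. ACTB was lower in HCCLM3 by -0.10 ± 0.03 (edgeR adjusted p = 0.0278), and its near-identical relative ACTG1 was called in neither line.

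**Figure D5:**
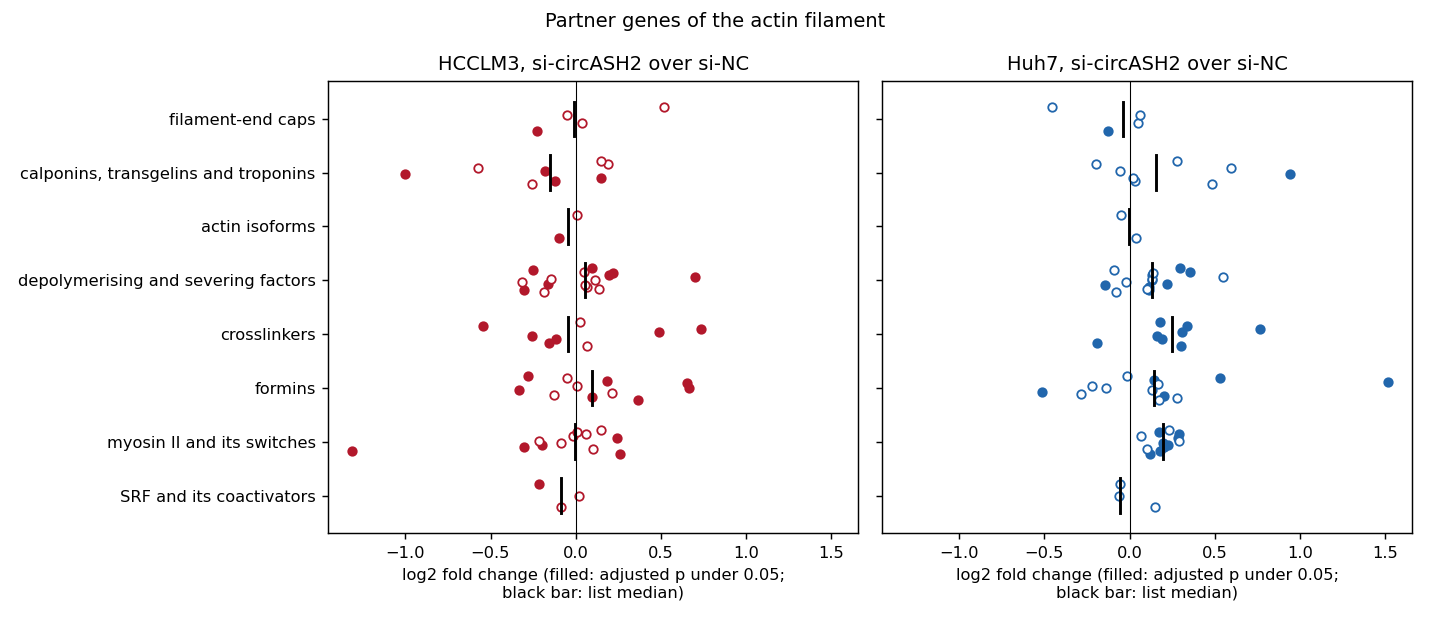
Log2 fold change, si-circASH2 over si-NC, of the tested genes in 8 lists of actin partners in HCCLM3 (left) and Huh7 (right); each point is a gene, filled where the edgeR adjusted p is under 0.05, and the bar is the median of the list. The crosslinkers and myosin II genes lie mostly above 0 in Huh7 and on both sides of 0 in HCCLM3; DAAM2 and FHOD3, with 3 counts or fewer in an HCCLM3 group, are not drawn there.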

How the data were processed

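Libraries of total RNA were made with a SMARTer mRNA kit, per the labels' protocols. The deposited counts are whole-number counts per gene and library, per the file headers, and the deposited FPKM of the same features were scaled by the authors for length and depth. The aligner, the counting tool, the annotation and the strand were not given in the sources used here. Tests on counts used edgeR 4.0.16 under R 4.3.3 (filterByExpr with a minimum count of 10, TMM, robust quasi-likelihood fit with 1 coefficient for each of the 4 groups, Benjamini-Hochberg adjustment over 16946 features, threshold 0.05). The si-NC libraries enter the knockdown, the difference and the si-NC comparison alike. FPKM levels, sums and shares were compared with exact two-sided permutation tests. Alternatives were DESeq2 1.42.0, limma 3.58.1 on log2(FPKM + 0.1) and log2(FPKM + 1), other scalings, no filter, each line alone, the replicate block and each library left out. Pairs of libraries of a group differed by more than sampling noise (chi-square of 3.89 to 8.53 per degree of freedom). Gene positions and 3′ UTRs came from GENCODE 29 and promoters from RefSeq.

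The genes and lists were chosen with earlier results of these data known. The text names the 7 genes and ASH2L, the 3 genes with the smallest adjusted p among those past the threshold in each list and line, and the genes of nearest pattern (5 for TPM4, 3 for the others). ACTN4, CNN2, ACTG1, TMOD2, MKL1, MKL2 and single markers were named after their values were seen.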

Additional observations from a re-analysis of the deposited data

Results flagged for a closer look

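For 5 of the 7 genes the response to si-circASH2 differed between the lines in the test of the difference itself (edgeR, HCCLM3 minus Huh7 on the log2 scale). The difference was -0.29 for TPM1, -0.36 for TPM2, -0.40 for TPM4, 0.53 for TMOD1 and 0.22 for CALD1. TPM4 had a log2 fold change of 1.02 in HCCLM3 and 1.43 in Huh7, so that both lines moved the same way by different amounts. TPM1 had -0.18 in HCCLM3 and 0.11 in Huh7, where the Huh7 value did not pass the test. The differences of TPM2, TPM4 and CALD1 passed the test under every alternative run, and those of TPM1 and TMOD1 did not.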

How the results depend on the processing

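No result of the 7 genes turned its direction past the threshold under any alternative run. Of 574 repeats of 28 gene results, 544 stayed on the same side of the threshold, 27 no longer passed it and 3 newly passed it. The genes called in HCCLM3 went to 3 of 7 with limma on log2(FPKM + 0.1), to 2 with the same over all features above 0 and to 3 with log2(FPKM + 1), against 5 in edgeR, and lay between 3 and 5 when 1 library was left out (3 without HCCLM3 si-NC replicate 2). The responses that differed between the lines went to 3 with each of these limma fits, against 5, and lay between 4 and 5 with 1 library left out. In Huh7 the genes called lay between 3 and 5. The cause was not tested. The replicate block left 5 genes called in HCCLM3 and 4 in Huh7 and changed no call. Same-numbered libraries of a line shared little deviation from their group means (correlations between -0.05 and 0.04). Correlations over all features show no large shared effect and cannot tell whether the numbers pair the samples. In HCCLM3 all 3 libraries correlated best with their own number, and in Huh7 1 of 3 did. The share of TPM4 in the pool was higher by 9.13 to 10.7 percentage points in HCCLM3 and by 13.7 to 14.8 in Huh7 over all alternatives, CPM in place of FPKM included. The partner genes called, a count added after the data were seen, lay between 25 and 37 of 65 in HCCLM3 and between 22 and 33 in Huh7. With 3 libraries a group no exact test of 1 value can pass 0.05, and TMOD1 in Huh7 rests on at most 123 counts a library.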
